A study of Mus musculus with 8 samples.

Results

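The molecules described here are 7 non-integrin adhesion molecules of neutrophil rolling and transmigration, namely Selplg, Cd44, Icam1, Pecam1, Cd47, Ceacam1 and Ceacam10. They were picked by gene name for what they do and matched by Ensembl identifier, and they are 7 of 55414 genes listed in the count files. No selectin stands among the 7, and the selectins of the vessel wall are described beside their ligands. Their RNA was compared between spleen neutrophils of 4 WT and 4 Cxcr2-/- mice, 1 RNAseq library per mouse. The WT animals are labelled FVB-WT and the knockout animals FVB-Cxcr2-/-, and both groups were 10 weeks old, kept in SOPF housing (free of specific and opportunistic pathogens), with no treatment named. The knockout line came from the Jackson Laboratory, was bred onto FVB and lacks Cxcr2 in every cell type, so a difference in neutrophils may arise inside or outside them. Cells were enriched with CD11b beads and then sorted as CD45+ CD11b+ Ly6G+ F4/80- cells, and RNA was depleted of ribosomal RNA before stranded libraries were made.

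A circulating neutrophil first rolls along the vessel wall, where selectins hold sugar-decorated proteins such as PSGL-1, the product of Selplg, and CD44. It then stops through integrins that bind ICAM-1 on the endothelium, and it crosses the wall with the help of PECAM-1 and CD47. CEACAM proteins are surface glycoproteins of the immunoglobulin superfamily, of which CEACAM1 carries inhibitory motifs in its cytoplasmic tail.

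Counts on genes ranged from 34220182 to 46233555 in WT and from 37549648 to 43789253 in Cxcr2-/- libraries, so that even the rarest of the 7 genes rested on at least 351 counts in each library. Cxcr2 RNA ranged from 1719 to 2252 CPM (CPM stands for the counts of a gene scaled to the TMM-normalized library size) in WT and from 12.9 to 20.7 CPM in Cxcr2-/- libraries, which matches the labels of all 8 libraries. The 10 most counted genes took 9.45% to 11.6% of the counts in WT and 17.0% to 19.2% in Cxcr2-/- libraries. Of the genes of the sorting markers, Ly6g averaged 226 CPM in WT and 539 CPM in Cxcr2-/- libraries, Ptprc (CD45) 4354 and 2553 CPM, Itgam (CD11b) 417 and 474 CPM, and Adgre1 (F4/80) 30.6 and 12.3 CPM. Summed markers of dividing and early granulocytic precursors ranged from 373 to 419 CPM in WT and from 1173 to 1386 CPM in Cxcr2-/- libraries (two-sided exact permutation test, p = 0.0286, the smallest that 4 against 4 can give, 0.0762 after Benjamini-Hochberg adjustment over 8 marker lists). A higher share of early cells and a change of RNA per cell cannot be told apart in bulk libraries, and this holds for every difference given here. WT replicate 2 held more RNA of macrophage genes and Cxcr2-/- replicates 3 and 4 more RNA of Mpo, Elane and haemoglobin genes than the other libraries of their groups, and each of the 7 genes was also tested without these 3 libraries.

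All 7 genes passed edgeR's quasi-likelihood test at an adjusted p under 0.05, 4 of them higher and 3 lower in Cxcr2-/- neutrophils. Across the 16778 genes tested, 44.7% passed (23.7% higher and 21.0% lower), and the share of higher genes among the calls was 53.0%, or 41.2% under upper-quartile scaling. Cd47, Pecam1, Ceacam1 and Ceacam10 were higher, and Selplg, Cd44 and Icam1 were lower. With a change of at least 1.5-fold asked for as well, 4 were higher and 2 lower, since Selplg was below that size, and 31.3% of all genes tested met both conditions (15.7% higher and 15.7% lower). The groups did not overlap for 6 of the 7 genes, against 41.6% of all genes tested. The median absolute log2 fold change was 0.76 over the 7 genes and 0.46 over all genes tested. The share of tested genes with a smaller absolute change was 38.2% for Selplg, 64.6% for Pecam1, 65.1% for Cd47, 71.4% for Cd44, 83.3% for Ceacam1, 88.5% for Ceacam10 and 92.3% for Icam1, so that the change of Selplg was smaller than that of most genes tested.

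**Figure D1:**
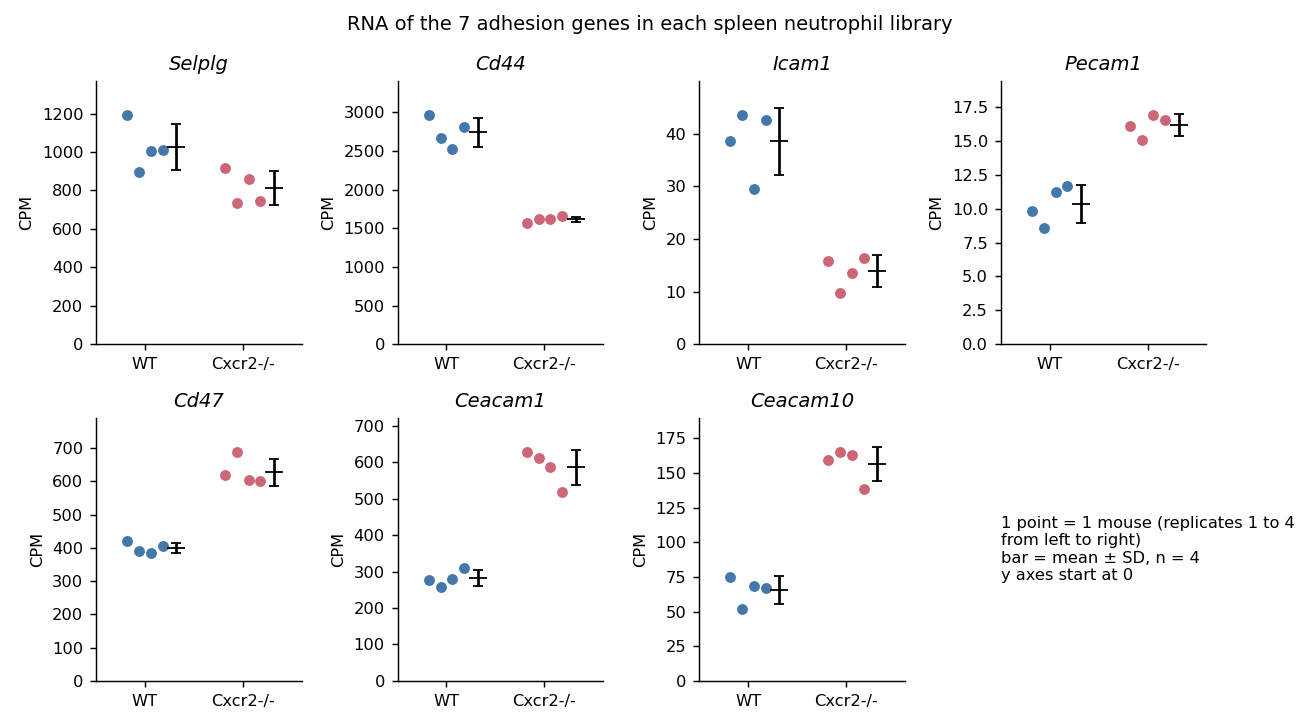
RNA level of the 7 adhesion genes in CPM (vertical axes, each from 0) in the 4 WT (blue) and 4 Cxcr2-/- (red) libraries. Points are single mice and bars are mean ± SD, and only the Selplg groups overlap.

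**Figure D2:**
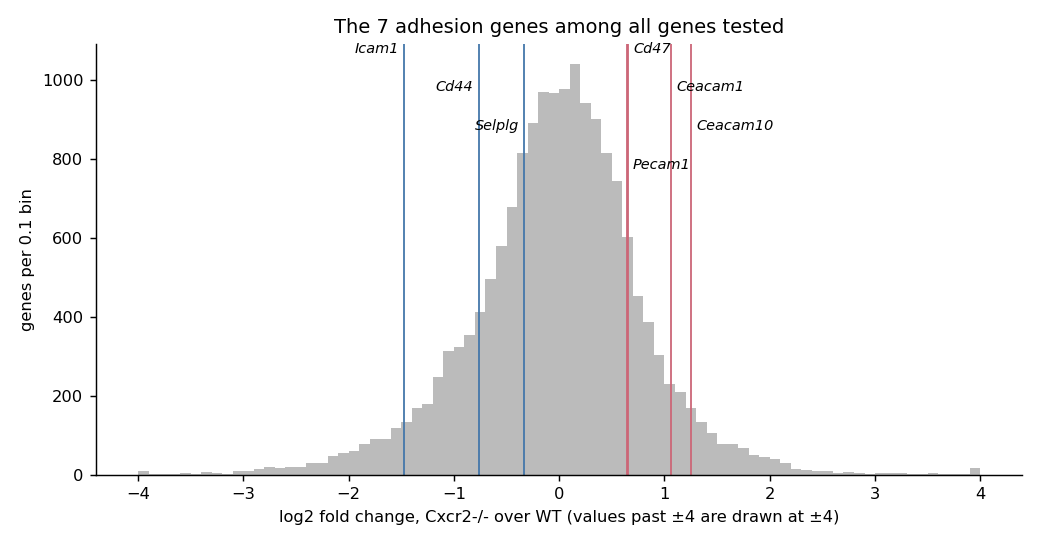
Histogram of the log2 fold change (horizontal axis, Cxcr2-/- over WT) of the 16778 genes tested, as genes per bin, with lines at the 7 adhesion genes. Selplg at -0.33 lies near the centre, while Icam1 at -1.47 and Ceacam10 at 1.26 lie in the flanks.

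To compare levels between genes, CPM was divided by the length of each gene's merged exons. Cd44 was the highest of the 7 per kb in both groups, with 405 ± 27.6 CPM per kb in WT and 238 ± 4.87 CPM per kb in Cxcr2-/- neutrophils (SD, n = 4 each). Selplg was next, with 240 ± 28.5 and 191 ± 20.5 CPM per kb. In WT neutrophils Cd47 followed at 63.7 ± 2.62 CPM per kb, above Ceacam1 at 48.4 ± 3.80 and Ceacam10 at 43.8 ± 6.61, and the last pair overlapped. In Cxcr2-/- neutrophils the same 3 genes stood level, with 105 ± 8.23 CPM per kb for Ceacam10, 101 ± 8.22 for Ceacam1 and 100.03 ± 6.54 for Cd47, and their ranges overlapped. Icam1 and Pecam1 were the lowest, with 8.83 ± 1.46 and 1.66 ± 0.225 CPM per kb in WT and 3.18 ± 0.695 and 2.59 ± 0.130 CPM per kb in Cxcr2-/- neutrophils. The distance between these 2 genes was thus much smaller in the knockout, although each Icam1 library except Cxcr2-/- replicate 2 stayed above every Pecam1 library of its group.

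**Figure D3:**
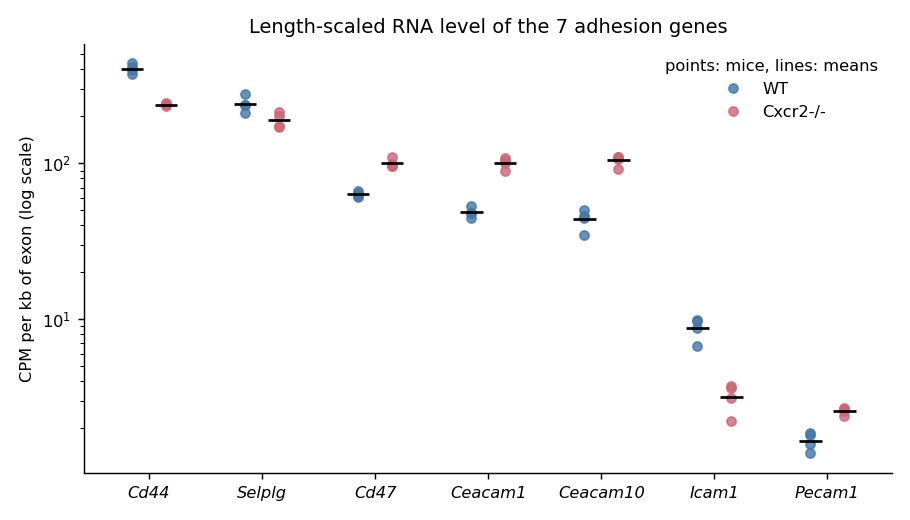
CPM per kb of merged exon (vertical axis, log scale) of the 7 genes in WT (blue) and Cxcr2-/- (red) libraries, with lines at the means. Cd44 and Selplg lead in both groups, and Cd47, Ceacam1 and Ceacam10 converge near 100 CPM per kb in the knockout.

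Selplg encodes PSGL-1, the main leukocyte ligand of P-selectin, and lies on chromosome 5 from 113818536 to 113832644 (GENCODE M21, GRCm38, minus strand; ENSMUSG00000048163). It stood at 1191, 897, 1005 and 1012 CPM in WT replicates 1 to 4 and at 916, 735, 858 and 747 CPM in Cxcr2-/- replicates 1 to 4. WT replicate 1 was the highest library, and WT replicate 2 fell below Cxcr2-/- replicate 1, so that the groups overlapped. The mean was 1026 ± 122 CPM in WT and 814 ± 87.7 in Cxcr2-/- neutrophils, which is a log2 fold change of -0.33 ± 0.12 (SE, 95% interval -0.59 to -0.08, edgeR adjusted p = 0.0361). Without WT replicate 1 the log2 fold change was -0.25 with an edgeR adjusted p of 0.108, and leaving out WT replicate 3 (0.0534) or 4 (0.0743) or Cxcr2-/- replicate 2 (0.108) or 4 (0.0825) also ended the call. Over 17 other settings the adjusted p of Selplg ranged from 0.00331 to 0.119 (edgeR or DESeq2).

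RNA of both selectins of the vessel wall was detected in these CD45+ cells and passed the test, Selp higher and Sele lower. Sele, known as the selectin of activated endothelium, ranged from 19.4 to 36.8 CPM in WT and from 8.62 to 12.6 CPM in Cxcr2-/- libraries (-1.40 ± 0.20, edgeR adjusted p = 1.16e-04). Selp, the selectin of platelets and endothelium, was higher in Cxcr2-/- libraries, at 14.5 to 19.4 CPM against 10.6 to 14.1 CPM (0.49 ± 0.13, edgeR adjusted p = 0.00688), and the call was lost without the 3 libraries named above (0.31, edgeR adjusted p = 0.122). The groups did not overlap for either gene. Summed endothelial markers were low and overlapped between the groups (10.6 to 13.7 CPM in WT, 9.89 to 14.5 CPM in Cxcr2-/- libraries, two-sided exact permutation test, p = 0.80), with 2 of 10 genes higher (Egfl7, mean 1.75 CPM in WT and 4.68 CPM in Cxcr2-/- libraries, and Tie1, 0.758 and 1.64 CPM) and 1 lower (Vwf, 6.59 and 2.63 CPM). Among them Emcn was at 0 in all 8 libraries and Cdh5, the endothelial cadherin, averaged 0.107 CPM in WT and 0.0630 CPM in Cxcr2-/- libraries. Summed platelet markers ranged from 79.1 to 96.4 CPM in WT and from 50.6 to 85.0 CPM in Cxcr2-/- libraries, most of it Itgb3 (two-sided exact permutation test, p = 0.0571). Of 10 platelet genes listed, 5 were tested, of which 3 were lower, namely Gp1ba (mean 10.8 CPM in WT and 6.76 CPM in Cxcr2-/- libraries), Itga2b (4.58 and 3.09 CPM) and Clec1b (2.48 and 1.31 CPM), and Pf4 averaged 0.0184 and 0.0250 CPM. Gp1ba, Itga2b and Clec1b were thus lower while Selp was higher, and whether platelet RNA adds to the level of Selp was not tested.

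Of 6 other selectin ligands tested, 1 was higher and 5 did not pass, beside 23.7% higher and 21.0% lower over all genes tested. Spn, which encodes the sialomucin CD43, was at 86.8 ± 8.74 CPM in WT and 123 ± 16.7 in Cxcr2-/- neutrophils (0.50 ± 0.11, edgeR adjusted p = 0.00285). Cd24a, a small mucin-like ligand of P-selectin, was at 779 ± 116 and 977 ± 111 CPM (0.33, edgeR adjusted p = 0.0538, and 0.43 with 0.0179 without WT replicate 1), and Glg1, a Golgi glycoprotein that can carry E-selectin ligand sugars, at 134 ± 14.1 and 139 ± 11.1 CPM (0.05, edgeR adjusted p = 0.732).

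PSGL-1 binds selectins once it carries the right sugars and, for some selectins, sulfated tyrosines. Of 14 genes of that synthesis tested, 4 were higher, 4 were lower and 6 did not pass (44.7% of all genes tested passed). Among the fucosyltransferases that complete the selectin-binding sugar, Fut4 fell from 56.8 ± 6.46 CPM in WT to 15.6 ± 2.11 in Cxcr2-/- neutrophils (log2 fold change -1.86 ± 0.12, edgeR adjusted p = 3.03e-07), whereas Fut7 rose from 13.5 ± 1.63 to 21.7 ± 4.38 CPM (0.68 ± 0.15, edgeR adjusted p = 0.00269). The 2 enzymes thus moved in opposite directions, although the Fut7 call was lost with the covariate for RNA of other cell types (0.39, edgeR adjusted p = 0.0711). Among the sialyltransferases, St3gal6 ranged from 218 to 300 CPM in WT and from 31.9 to 66.1 CPM in Cxcr2-/- libraries (-2.37 ± 0.20, edgeR adjusted p = 2.19e-06). St3gal3 fell from 6.50 ± 0.493 to 2.64 ± 0.202 CPM (-1.30 ± 0.15), while St3gal4, which acts on neutrophil selectin ligands, was at 200 ± 15.2 and 180 ± 13.3 CPM (-0.15, 95% interval -0.36 to 0.05, edgeR adjusted p = 0.204) but passed as lower with upper-quartile scaling (-0.27, edgeR adjusted p = 0.0296) and with total counts (-0.24, edgeR adjusted p = 0.0439). Gcnt1, the core 2 branching enzyme on which PSGL-1 binding depends, fell from 409 ± 17.5 to 203 ± 20.4 CPM (-1.01 ± 0.10, edgeR adjusted p = 5.52e-06). B4galt1, a galactosyltransferase, rose from 102 ± 6.40 to 158 ± 15.02 CPM, and Slc35c1, the Golgi transporter of GDP-fucose, from 10.9 ± 0.946 to 16.8 ± 1.42 CPM (0.63 for both genes). Tpst2, which sulfates tyrosines, was at 71.6 ± 6.64 and 79.1 ± 12.3 CPM and did not pass the test (edgeR adjusted p = 0.329).

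The first sugars of these chains are added by Galnt1 and C1galt1. Galnt1 was higher, at 42.0 ± 1.14 CPM in WT and 52.3 ± 5.37 in Cxcr2-/- neutrophils (0.32 ± 0.09, edgeR adjusted p = 0.0132), but lost its call with upper-quartile scaling (0.20), with total counts (0.23), without WT replicate 3 or Cxcr2-/- replicate 4, and without the 3 libraries that stood apart on markers (0.25, edgeR adjusted p = 0.121). C1galt1 was at 85.6 ± 7.89 and 74.8 ± 9.31 CPM (-0.20, edgeR adjusted p = 0.151) and passed as lower with upper-quartile scaling (-0.31), with total counts (-0.28) and without Cxcr2-/- replicate 2 (-0.28). St3gal1, a sialyltransferase of the same chains, was at 97.9 ± 6.36 and 92.3 ± 6.97 CPM (edgeR adjusted p = 0.465).

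Cd44 encodes the hyaluronan receptor that also serves neutrophils as an E-selectin ligand, and lies on chromosome 2 from 102811141 to 102901665 (minus strand, ENSMUSG00000005087). Its level was 2961, 2671, 2527 and 2817 CPM in WT replicates 1 to 4 and 1573, 1620, 1617 and 1654 CPM in Cxcr2-/- replicates 1 to 4. The groups were far apart, and the spread among the knockout libraries was small. The mean fell from 2744 ± 187 to 1616 ± 33.02 CPM, a log2 fold change of -0.76 ± 0.10 (95% interval -0.99 to -0.54, edgeR adjusted p = 7.14e-05).

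Of 9 genes of hyaluronan handling tested beside Cd44, 2 were higher, 2 were lower and 5 did not pass. Over all genes tested, 44.7% passed. Cemip2, described as a cell surface hyaluronidase, rose from 89.5 ± 4.60 to 202 ± 30.3 CPM (1.17 ± 0.11, edgeR adjusted p = 4.62e-06). Hmmr, a hyaluronan-binding protein that also works at the mitotic spindle, rose from 7.79 ± 0.880 to 34.4 ± 5.28 CPM (2.14 ± 0.13, edgeR adjusted p = 2.13e-07), beside precursor markers of which 12 of 12 were higher. Stab1, a scavenger receptor that takes up hyaluronan, fell from 15.8 ± 2.09 to 3.48 ± 0.685 CPM (-2.18 ± 0.17), and Has2, a hyaluronan synthase, from 9.25 ± 1.28 to 5.37 ± 2.51 CPM (-0.79 ± 0.28, edgeR adjusted p = 0.0351). The Has2 call was lost when WT replicate 1 or 4 or Cxcr2-/- replicate 3 or 4 was left out, and without the 3 libraries that stood apart on markers (-0.34, edgeR adjusted p = 0.171).

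CD44 and PSGL-1 are tied to actin by proteins of the ezrin, radixin and moesin family, and adhesion molecules can be cut from the surface by sheddases. Of 4 anchor genes tested, Ezr was lower, at 336 ± 41.8 CPM in WT and 225 ± 34.7 in Cxcr2-/- neutrophils (-0.58 ± 0.13, edgeR adjusted p = 0.00286), and Rdx was higher, at 47.3 ± 1.49 and 59.6 ± 5.53 CPM (0.33 ± 0.09, edgeR adjusted p = 0.00855). Msn (moesin) did not pass (1760 ± 166 and 1631 ± 85.5 CPM, edgeR adjusted p = 0.433), nor did Cib1, a calcium- and integrin-binding protein (40.3 ± 6.39 and 47.6 ± 5.23 CPM, edgeR adjusted p = 0.131). Of 4 sheddase genes tested, Adam17, a protease that releases TNF and other surface proteins, fell from 155 ± 5.85 to 120 ± 6.03 CPM (-0.37 ± 0.08), and Adam8, a sheddase of neutrophils, from 1287 ± 73.7 to 923 ± 84.4 CPM (-0.48 ± 0.10). Adam10, known to cut CD44, was higher, at 120 ± 8.78 and 149 ± 12.5 CPM (0.31 ± 0.09, edgeR adjusted p = 0.0166), and Rhbdf2, a partner of ADAM17, was at 224 CPM in both groups (edgeR adjusted p = 0.998). Rdx and Adam10 lost their calls with upper-quartile scaling (0.21 and 0.19) and with total counts (0.24 and 0.23). With the covariate for RNA of other cell types their folds were nearly as before (0.31 and 0.32) and edgeR adjusted p was 0.0548 and 0.0571. Adam10 lost its call also in 3 of the 8 fits with a library left out (WT replicate 2 or 3 or Cxcr2-/- replicate 4) and without the 3 libraries named above.

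Icam1 encodes a ligand of the beta-2 integrins and lies on chromosome 9 from 21015985 to 21028817 (plus strand, ENSMUSG00000037405). In M21 an antisense gene, Gm47079, overlaps its exons, and the strand setting of the counting is not given in the sources used here, so reads of the pair may not have been kept apart. Its promoter is shown because a motif of the kappa B type stands in it: GGAANNTCC (read as GGANNTTCC on the other strand) was found in Icam1, in none of the 4 other adhesion genes with a promoter entry, and in 4.26% of 32851 RefSeq promoter windows of the same length (250 bases before to 50 after a start). The match, in capitals, begins 153 bases before the RefSeq start of the gene, and the stretch upstream of that start, chr9:21015690-21015939 of GRCm38.p6 on the plus strand, reads as follows.
Icam1: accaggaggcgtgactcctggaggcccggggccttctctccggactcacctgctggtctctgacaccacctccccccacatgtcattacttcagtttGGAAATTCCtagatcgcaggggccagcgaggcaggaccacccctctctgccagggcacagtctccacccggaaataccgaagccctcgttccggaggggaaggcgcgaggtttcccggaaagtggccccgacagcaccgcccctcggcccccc
A match of letters says nothing on whether a factor binds there. Icam1 RNA stood at 38.5, 43.5, 29.5 and 42.5 CPM in WT replicates 1 to 4 and at 15.8, 9.71, 13.5 and 16.4 CPM in Cxcr2-/- replicates 1 to 4. WT replicate 3 was the lowest WT library and yet above every knockout library. The mean was 38.5 ± 6.36 CPM in WT and 13.9 ± 3.03 in Cxcr2-/- neutrophils, which is a log2 fold change of -1.47 ± 0.17 (95% interval -1.84 to -1.11, edgeR adjusted p = 2.05e-05), the largest absolute change of the 7 genes in this fit. Icam2, a related ligand, was lower as well, at 6.42 ± 0.725 and 4.405 ± 0.319 CPM (-0.54 ± 0.15, edgeR adjusted p = 0.0104).

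Pecam1 encodes CD31, which binds itself at the junctions that leukocytes cross, and lies on chromosome 11 from 106654217 to 106750628 (minus strand, ENSMUSG00000020717). It stood at 9.84, 8.60, 11.2 and 11.7 CPM in WT replicates 1 to 4 and at 16.1, 15.02, 16.9 and 16.6 CPM in Cxcr2-/- replicates 1 to 4. Every knockout library lay above every WT library. The mean rose from 10.3 ± 1.40 to 16.1 ± 0.808 CPM, a log2 fold change of 0.64 ± 0.12 (95% interval 0.38 to 0.91, edgeR adjusted p = 9.49e-04). The endothelial markers given beside the selectins, with Tie1 and Egfl7 higher, Vwf lower, and Emcn at 0, overlapped in sum between the groups, and their part in the level of Pecam1 was not tested.

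Among 17 other immunoglobulin and junctional molecules tested, 5 were higher, 5 were lower and 7 did not pass (44.7% of all genes tested passed). Cd177, a neutrophil surface protein that binds PECAM-1, ranged from 1343 to 1622 CPM in WT and from 3332 to 5095 CPM in Cxcr2-/- libraries (log2 fold change 1.49 ± 0.15, edgeR adjusted p = 6.27e-06). Cd177 and Pecam1 RNA were thus both higher in these sorted cells, and binding of their proteins was not tested. Jaml, a junctional adhesion molecule of leukocytes, fell from 338 ± 38.6 to 86.1 ± 4.68 CPM (-1.97 ± 0.10, edgeR adjusted p = 7.77e-08), and Cxadr, its epithelial binding partner, from 21.3 ± 2.11 to 11.5 ± 1.93 CPM (-0.88 ± 0.13, edgeR adjusted p = 1.68e-04). Jaml and Cxadr RNA were thus both lower in these sorted cells, and binding of their proteins was not tested. Alcam, the CD6 ligand CD166, fell from 160 ± 8.001 to 53.9 ± 3.76 CPM (-1.57 ± 0.09, edgeR adjusted p = 1.12e-07). Mcam and L1cam, of the same superfamily, did not pass (176 ± 29.3 and 195 ± 28.2 CPM, and 229 ± 8.68 and 241 ± 61.9 CPM, edgeR adjusted p = 0.387 and 0.713), except that L1cam passed as higher without the 3 libraries that stood apart on markers (0.35, edgeR adjusted p = 0.0334). Bsg (basigin) rose from 33.7 ± 2.88 to 50.7 ± 4.90 CPM (0.59 ± 0.10), and Pvr, the poliovirus receptor of the nectin family, from 1.87 ± 0.562 to 4.52 ± 0.735 CPM (1.27 ± 0.23). Its relative Nectin2 had 0, 6, 2 and 0 counts in WT replicates 1 to 4 and 30, 30, 37 and 40 counts in Cxcr2-/- replicates 1 to 4, and the test called it higher (edgeR adjusted p = 1.96e-04). F11r, which encodes the junctional molecule JAM-A, was at 1.06 ± 0.178 and 1.92 ± 0.726 CPM (0.87 ± 0.29, edgeR adjusted p = 0.0256), and Cd2 at 1.14 ± 0.336 and 0.502 ± 0.314 CPM (-1.18 ± 0.41, edgeR adjusted p = 0.0318), with overlap between the groups for Cd2. Both calls were fragile: F11r lost its call when WT replicate 1, 2 or 3 or Cxcr2-/- replicate 3 was left out and without the 3 libraries that stood apart on markers (log2 fold change 0.36, edgeR adjusted p = 0.418), and Cd2 with the covariate (-0.47, edgeR adjusted p = 0.434) or when WT replicate 1, 2 or 3 or Cxcr2-/- replicate 1, 2 or 4 was left out.

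Cd47 encodes the signal that restrains phagocytosis through SIRP-alpha and takes part in neutrophil transmigration, and lies on chromosome 16 from 49800533 to 49915010 (plus strand, ENSMUSG00000055447). It stood at 420, 390, 384 and 405 CPM in WT replicates 1 to 4 and at 619, 688, 604 and 600 CPM in Cxcr2-/- replicates 1 to 4. Cxcr2-/- replicate 2 was the highest library, and the groups lay far apart. The mean rose from 400 ± 16.4 to 628 ± 41.0 CPM, a log2 fold change of 0.65 ± 0.09 (95% interval 0.45 to 0.85, edgeR adjusted p = 1.10e-04).

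Of 5 partner genes of CD47 tested, 1 was higher, 1 was lower and 3 did not pass (44.7% of all genes tested passed). Sirpa, its receptor on myeloid cells, was at 1015 ± 115 CPM in WT and 891 ± 57.5 in Cxcr2-/- neutrophils (-0.19, 95% interval -0.43 to 0.05, edgeR adjusted p = 0.185). Sirpa did pass as lower with upper-quartile scaling (-0.31, edgeR adjusted p = 0.0317) and with total counts (-0.28, edgeR adjusted p = 0.0208). Thbs1, which encodes the secreted CD47 ligand thrombospondin-1, ranged from 525 to 1002 CPM in WT and from 125 to 259 CPM in Cxcr2-/- libraries (-2.14 ± 0.26, edgeR adjusted p = 3.78e-05), with WT replicates 2 and 3 well above the other WT libraries. Of the phosphatases that SIRP-alpha recruits, Ptpn11 (SHP-2) rose from 54.2 ± 5.76 to 85.6 ± 13.1 CPM (0.66 ± 0.12, edgeR adjusted p = 7.00e-04), and Ptpn6 (SHP-1) was at 620 ± 72.0 and 549 ± 63.2 CPM (-0.18, edgeR adjusted p = 0.245), though Ptpn6 also passed as lower with upper-quartile scaling (-0.30, edgeR adjusted p = 0.0483) and with total counts (-0.27, edgeR adjusted p = 0.0283).

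Ceacam1 and Ceacam10 both lie on chromosome 7, 677 kb apart and on opposite strands: Ceacam10 (ENSMUSG00000054169) from 24777206 to 24784657 on the plus strand, and Ceacam1 (ENSMUSG00000074272) from 25461707 to 25477603 on the minus strand. CEACAM1 spans the membrane and signals through its tail, whereas CEACAM10 is a small secreted relative. Their promoter windows in RefSeq are shown because they resemble each other: aligned locally, 261 of 280 bases were identical (93.2%, no gaps). Whether this likeness has any part in the RNA level of either gene was not tested. The capitals mark the longest identical run, of 114 bases, in the 250 bases before each start, chr7:25477626-25477875 on the minus strand and chr7:24776917-24777166 on the plus strand of GRCm38.p6.
Ceacam1: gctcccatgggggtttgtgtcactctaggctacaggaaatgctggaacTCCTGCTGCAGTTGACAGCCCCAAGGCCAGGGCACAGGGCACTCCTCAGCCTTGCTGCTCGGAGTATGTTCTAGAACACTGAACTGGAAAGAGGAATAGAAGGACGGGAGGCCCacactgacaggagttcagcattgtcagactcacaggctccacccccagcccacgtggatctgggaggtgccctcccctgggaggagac
Ceacam10: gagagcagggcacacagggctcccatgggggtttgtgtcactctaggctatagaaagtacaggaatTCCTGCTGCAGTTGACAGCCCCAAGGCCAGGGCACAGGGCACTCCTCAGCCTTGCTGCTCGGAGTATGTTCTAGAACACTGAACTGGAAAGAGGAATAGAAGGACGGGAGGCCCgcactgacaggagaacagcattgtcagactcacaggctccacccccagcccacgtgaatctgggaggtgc
No other pair among the 5 adhesion genes with a window aligned over more than 50 bases. RefSeq windows for Selplg and Pecam1 were not used here.

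Ceacam1 stood at 278, 258, 278 and 311 CPM in WT replicates 1 to 4 and at 628, 610, 587 and 519 CPM in Cxcr2-/- replicates 1 to 4. Ceacam10 stood at 75.1, 51.7, 68.4 and 67.0 CPM in WT replicates 1 to 4 and at 159.7, 165, 163 and 139 CPM in Cxcr2-/- replicates 1 to 4. For both genes WT replicate 2 was the lowest library, Cxcr2-/- replicate 4 was the lowest of the knockout group, and the groups did not overlap. The mean of Ceacam1 rose from 281 ± 22.1 to 586 ± 47.7 CPM, a log2 fold change of 1.06 ± 0.10 (95% interval 0.84 to 1.28, edgeR adjusted p = 4.96e-06). The mean of Ceacam10 rose from 65.6 ± 9.88 to 157 ± 12.3 CPM, a log2 fold change of 1.26 ± 0.12 (95% interval 1.003 to 1.51, edgeR adjusted p = 4.01e-06). M21 transcripts of Ceacam1 and Ceacam10 shared no stretch as long as the shortest read kept after trimming (0 of 1602 such words of Ceacam10). By contrast, 17.7% of the words of Ceacam1 also occur in Ceacam2, so reads lying in those stretches may have been left uncounted as not unique.

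Related genes, and genes on the chromosome between them, were tested as well. Of 3 other CEACAM genes tested, 2 were lower and 1 did not pass. Ceacam16 fell from 7.22 ± 0.647 to 3.51 ± 0.765 CPM (-1.04 ± 0.17, edgeR adjusted p = 4.02e-04) and Ceacam18 from 11.7 ± 0.404 to 7.31 ± 1.495 CPM (-0.67 ± 0.15, edgeR adjusted p = 0.00269). Ceacam2, the close copy of Ceacam1, was near 0, at 0.270 ± 0.122 and 0.351 ± 0.0535 CPM (edgeR adjusted p = 0.527). Of 37 genes listed between Ceacam10 and Ceacam1, 22 were tested, of which 3 were higher, 6 were lower and 13 did not pass. Over all genes tested, 23.7% were higher and 21.0% lower. The median log2 fold change was -0.28 for the genes between the pair and 0.01 over all genes tested. Cd177, on the other side of Ceacam10 from 24743983 to 24760311 on the minus strand, lies outside that stretch. It was higher (log2 fold change 1.49 ± 0.15, edgeR adjusted p = 6.27e-06), and other genes on that side were not counted.

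Beside the 7 genes, the list of 78 other genes of rolling, adhesion and transmigration held 77 with a match in the files, of which 65 passed the filter on low counts. Of these, 16 were higher, 19 were lower and 30 did not pass, beside 23.7% higher and 21.0% lower over all genes tested. The median log2 fold change was -0.03. The groups of 34 of them did not overlap (41.6% over all genes tested), and the median absolute change was 0.50 (0.46 over all genes tested). Neither the list nor all genes tested thus moved one way as a whole. The genes left out for low counts include Madcam1, Cdh5 and Esam of the vessel wall and Fut9, with 18, 28, 78 and 0 counts over the 8 libraries.

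**Figure D4:**
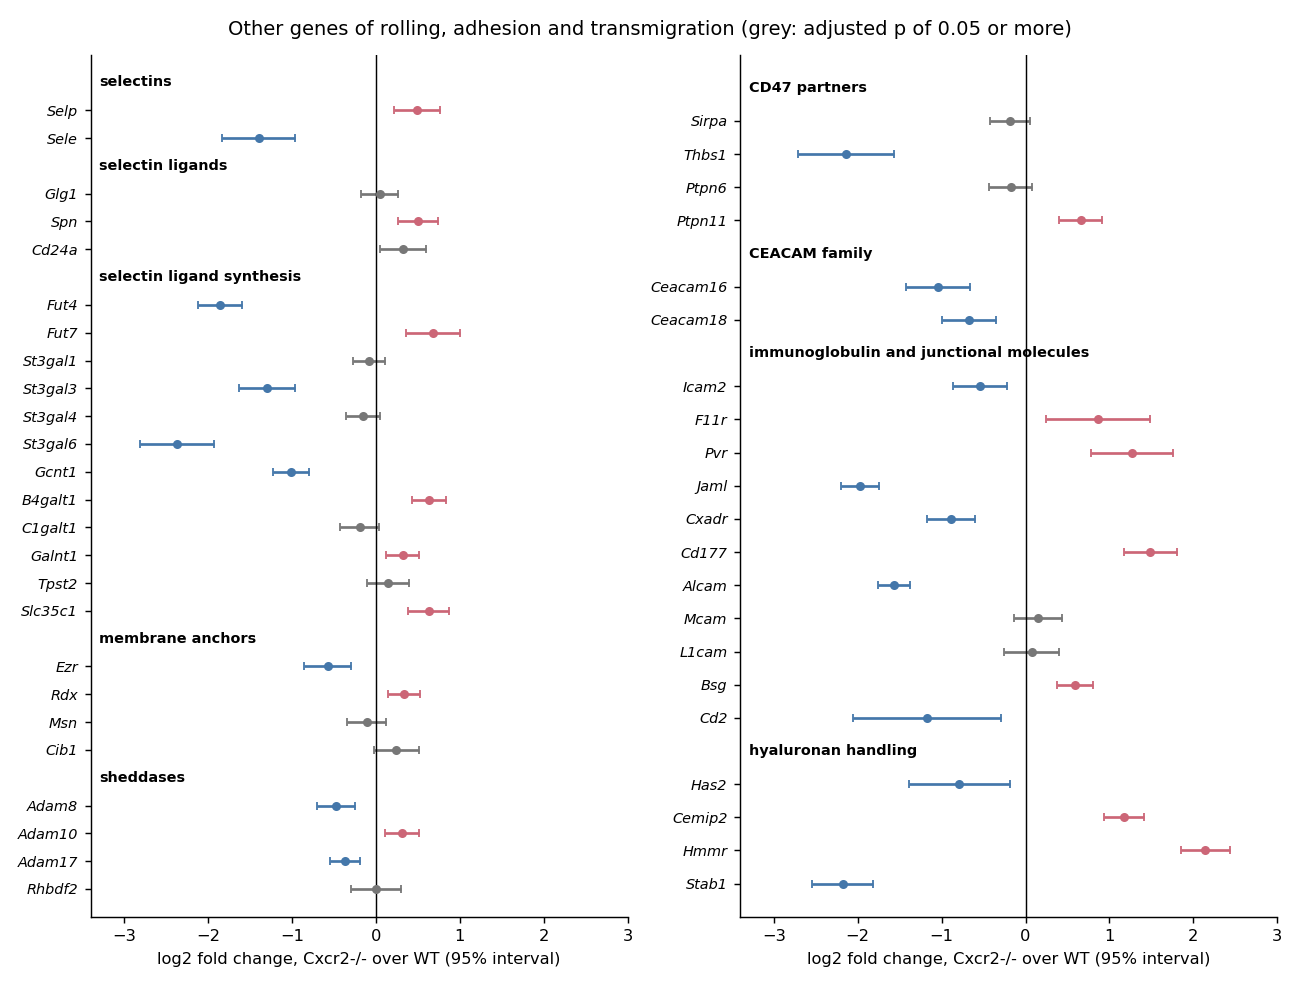
Log2 fold change (horizontal axes, Cxcr2-/- over WT) with 95% intervals of genes of the adhesion list, by role. Blue genes were lower and red genes higher at an adjusted p under 0.05, and both colours occur in most roles.

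The genes most alike to each of the 7 were sought over the 8 libraries among 4216 genes whose log2 CPM averaged 5 or more, by the root mean square difference of log2 (CPM + 1) after each gene's own mean was taken off. Cd47 had the closest match, Faf1 at 0.032, followed by Npepps at 0.046 and Rad21 at 0.047. Nearest to Cd44 were Pip4k2a at 0.039, Chsy1 at 0.051 and Lipa at 0.060, and nearest to Selplg were Fuca1 at 0.054, Laptm5 at 0.066 and Csk at 0.068. Ceacam10 was most alike to Ethe1 (0.069), C1rl (0.075) and Ly6c2 (0.094), and Ceacam1 to Apmap (0.082), Sptbn1 (0.085) and Gys1 (0.085), so that neither was among the other's 3 nearest. Pecam1 was most alike to Vti1a (0.071), Dynll1 (0.073) and Smc1a (0.083). Icam1 had no match as close, with Neurl3 at 0.159, Adgre5 at 0.160 and Bcor at 0.166. Icam1 and Pecam1 themselves averaged a log2 CPM of 4.71 and 3.73, below the limit set for their matches. The measure takes in the difference between the groups, so genes of like fold stand close by it. Adgre5 encodes CD97, an adhesion receptor of leukocytes.

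Markers of other cells that the gate could hold were summed in each library. B cell markers ranged from 77.5 to 175 CPM in WT and from 32.8 to 78.1 CPM in Cxcr2-/- libraries (8 of 10 lower, two-sided exact permutation test, p = 0.0571, 0.0914 after adjustment over the 8 lists). T and NK cell markers ranged from 115 to 136 CPM in WT and from 102 to 153 CPM in Cxcr2-/- libraries. Most of that sum was Cd3d (mean 99.1 CPM in WT and 108 CPM in Cxcr2-/- libraries). Cd5 averaged 19.1 and 11.3 CPM, and Cd3e 0.206 and 0.0935 CPM. Of 6 genes of that list tested, 2 were lower and 0 higher. Markers of monocytes, macrophages and dendritic cells ranged from 757 to 886 CPM in WT and from 891 to 1045 CPM in Cxcr2-/- libraries (2 of 12 higher and 2 lower, two-sided exact permutation test, p = 0.0286, 0.0762 after adjustment). The higher sum came from Ly6c2 (mean 239 CPM in WT and 627 CPM in Cxcr2-/- libraries) and Ccr2 (7.29 and 24.1 CPM), the only members of that list that were higher, while Csf1r (442 and 232 CPM) and Adgre1 (30.6 and 12.3 CPM), which encodes F4/80, were lower. Erythroid markers ranged from 2.11 to 4.998 CPM in WT and from 1.83 to 12.9 CPM in Cxcr2-/- libraries. Neutrophil markers themselves ranged from 55291 to 73732 CPM in WT and from 116514 to 152033 CPM in Cxcr2-/- libraries, with 10 of 13 genes higher and 2 lower. The largest parts of the sum were S100a9 (mean 13530 CPM in WT and 33865 CPM in Cxcr2-/- libraries) and S100a8 (12054 and 28418 CPM). Csf3r (6960 and 3334 CPM) and Ptprc (4354 and 2553 CPM) were the lower genes, so the list did not move as one. The term for RNA of other cell types averaged log2 (CPM + 1) over 32 genes of the B, T and NK, and monocyte lists. It held Ly6c2 and Csf1r, and it ranged from 2.42 to 3.03 in WT and from 1.96 to 2.73 in Cxcr2-/- libraries. Whether it measures RNA of other cells alone was not tested. With this term in the fit, 6 of the 7 genes kept their calls and Selplg did not (log2 fold change -0.32, edgeR adjusted p = 0.119). Without the 3 libraries that stood apart on markers all 7 kept theirs.

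**Figure D5:**
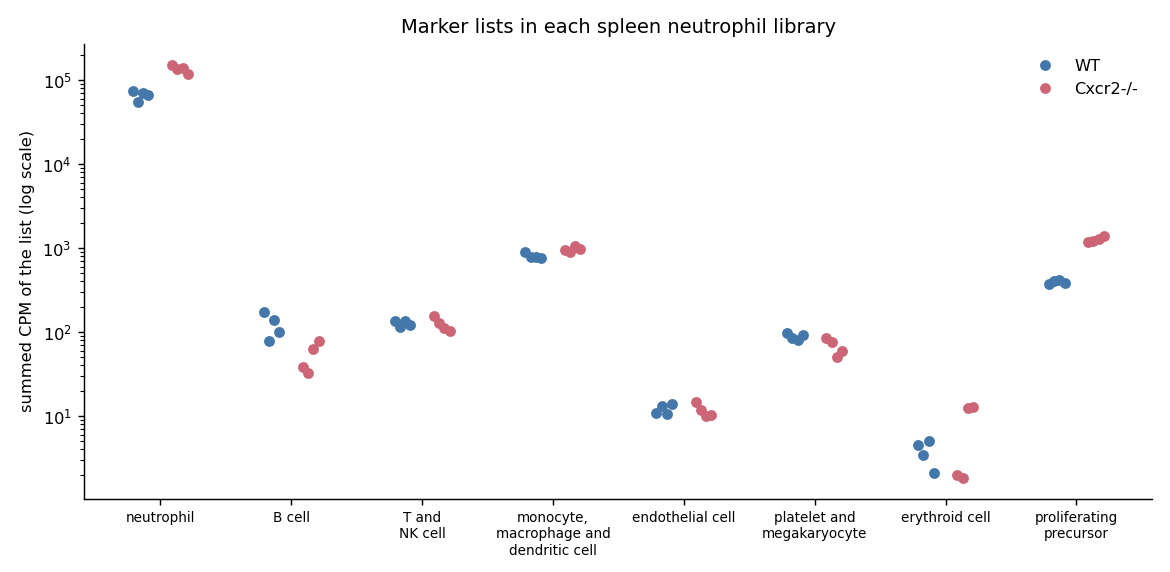
Summed CPM (vertical axis, log scale) of 8 marker lists in each WT (blue) and Cxcr2-/- (red) library. The neutrophil and precursor sums are higher in every Cxcr2-/- library, although Csf3r and Ptprc of the neutrophil list are lower. The sum for monocytes, macrophages and dendritic cells is narrowly higher in every Cxcr2-/- library too (lowest 891 CPM, highest WT library 886 CPM). The endothelial sum overlaps between the groups.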

How the data were processed

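RNA of sorted spleen neutrophils was sequenced from 4 WT and 4 Cxcr2-/- mice. The authors checked reads with FastQC, trimmed them, used STAR for alignment to mm10 and HTSeq for counting on genes; the deposited values are a whole-number count per gene and mouse, not normalized. The strand setting and the annotation release of the counting are not given in the sources used here. Groups and replicate numbers came from the labels, and same-numbered mice of the 2 groups are different animals. Nothing more is stated on litters or days, so p-values cover the spread between these mice. Replicates of a group differed beyond sampling noise, with 21.6 to 88.5 as chi-square per gene. Symbols, exons and positions came from GENCODE M21 (GRCm38), which has 52081 of 55414 identifiers. Of these, 35 had the same identifier version as in M21, so the gene models used for counting may differ from those behind the positions and the levels per kb. HTSeq's own totals stayed out of library sizes: pairs that met no gene were 31.4% to 41.5% in WT and 26.7% to 31.9% in Cxcr2-/- libraries.

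Genes were tested in R 4.3.3 with edgeR 4.0.16 (quasi-likelihood, TMM, filterByExpr, Benjamini-Hochberg over 16778 genes), where a gene passed at an adjusted p under 0.05, and the biological coefficient of variation was 0.202. Marker sums were compared with an exact permutation test. Steps were tested on simulated data in which 200 of 16778 genes were changed. There edgeR recovered 20% of the 1.5-fold, 62% of the 2-fold and 84% of the 4-fold changes, and called 8 unchanged genes. A gene that did not pass may thus still have changed. Promoter windows came from RefSeq (GRCm38.p6), with the lowest start where a gene had several. Named are the 7 genes, the 3 genes most alike to each, Cxcr2, markers beside a result, and genes of the adhesion list that were tested. Of these last, values are given for genes with an adjusted p under 0.05 or an average log2 CPM of at least 5, a limit set after values were seen. The 7 genes and all lists were chosen with earlier results of these data known. Some genes of the list are not reported here. The alternatives were DESeq2 1.42.0, RLE, upper-quartile and total-count scaling, 2 other filters, a block for the replicate number, a term for RNA of other cells, and each library left out. Leaving out WT replicate 2 and Cxcr2-/- replicates 3 and 4 together was added after the data were seen.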

Additional observations from a re-analysis of the deposited data

Results flagged for a closer look

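Of 110 groups of 4 libraries checked for a library far from the rest of its group, 2 held one, and chance alone flags about 5% of groups. Ceacam16 stood at 4.65 CPM in Cxcr2-/- replicate 1, with the nearest other library of that group at 3.18 CPM, and was still below every WT library. Pvr stood at 5.62 CPM in Cxcr2-/- replicate 3, with the nearest other library at 4.22 CPM. None of the 7 adhesion genes held such a library in either group. The cause was not tested.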

How the results depend on the processing

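Of the 7 adhesion genes, 6 kept their direction and their call in each of 17 other settings, with log2 fold changes from -0.88 to -0.72 for Cd44, -1.60 to -1.33 for Icam1, 0.49 to 0.71 for Pecam1, 0.53 to 0.68 for Cd47, 0.92 to 1.11 for Ceacam1 and 1.13 to 1.33 for Ceacam10. Selplg kept its direction but lost its call in 6 of 17: with the covariate for RNA of other cell types (-0.32) and in 5 of the 8 fits with a library left out, where it ranged from -0.42 to -0.25. Upper-quartile scaling moved the median log2 fold change of all genes from 0.01 to -0.11, and 41.2% of the calls were then higher (3076 higher and 4391 lower) against 53.0% by TMM, and the adhesion list had 13 genes higher and 23 lower under that scaling and under total counts. DESeq2 called 3918 genes higher and 3832 lower. With the replicate number as a block, 3719 genes were higher and 3349 lower, and all 7 adhesion genes kept their calls. Deviations of same-numbered libraries did not go together (correlations from -0.26 to 0.16), so the numbers were not taken as pairs.

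A few genes whose change was near 0 turned sign without passing the test. The Glg1 log2 fold change was -0.072 with upper-quartile scaling, -0.045 with total counts and -0.049 with the covariate, and ranged from -0.042 to 0.088 with a library left out. The L1cam log2 fold change was -0.046, -0.029 and -0.18 in these 3 settings, and from -0.077 to 0.17 with a library left out. The Rhbdf2 log2 fold change was -0.12, -0.10 and -0.20 in the same settings, -0.016 with DESeq2, -0.020 with RLE, -0.017 with no filter, -0.040 with at least 10 counts in every library and -0.022 with the replicate block, and from -0.16 to 0.074 with a library left out. Of 815 values of the named genes of the adhesion list, 751 kept their direction and side of the threshold, and of 357 values of the most alike genes 348 did. Depth did not limit the 7 genes, each with at least 351 counts per library, while values of genes under 1 CPM, such as Ceacam2, rest on few counts.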
